A study of Mus musculus with 6 samples.

Results

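The genes described here are 8 that define the podocyte, the epithelial cell that wraps the glomerular capillaries of the kidney: Nphs1, Magi2, Cd2ap, Ptpro, Podxl, Synpo, Plce1 and Wt1. They were chosen by name, as genes of the slit diaphragm and of podocyte identity, and all 8 were among the 54146 genes of the deposited table and among the 14386 genes that were tested. The material was bulk kidney RNA from mice that underwent unilateral nephrectomy aged 6 weeks and afterwards ate a diet with 4% salt. This surgery and diet were common to all groups, so no untreated animal entered any comparison. Of the 6 libraries, 2 came from mice labelled G2APOL1, 2 from mice labelled G0APOL1 and 2 from WT mice. Human APOL1 has a reference form, G0, and kidney disease risk variants, of which G2 is one, and the mouse has no APOL1 gene of its own. Series text describes the transgene as inducible and cell-specific and writes both transgenic genotypes with the prefix EC, without spelling out the prefix, the driver or the inducing agent. Age at collection and sex were not given, the transgene itself was not analysed here, and nothing states that replicate libraries came from separate animals, so the p-values below measure the spread between libraries only.

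Podocytes send out interlocking foot processes, and the gaps between these are bridged by the slit diaphragm, a specialised cell junction that forms the last barrier of the glomerular filter. Nephrin, the product of Nphs1, is the adhesion molecule that spans the gap, and scaffold and adaptor proteins such as MAGI2 and CD2AP tie it to signalling proteins and to actin. The negatively charged surface of the foot processes, their actin bundles and a podocyte transcription programme that includes WT1 keep this architecture in place, and inherited loss of several of these genes causes proteinuric kidney disease in humans. Podocytes are a small part of the kidney, and several of the genes are also active elsewhere in the organ: Podxl in endothelium, Cd2ap in many epithelia and Wt1 in parietal epithelial cells. In bulk tissue, fewer cells of a type and less RNA per cell cannot be told apart.

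Total counts lay between 8490396 and 11800932 per library, and mitochondrial genes took 12.6% to 21.1% of them. In a principal component analysis of all tested genes, the first component (38.5% of the variance) placed both WT libraries apart from the 4 transgenic ones. On the second component (22.6%), G0APOL1 replicate 2 lay at −72.1, against −27.0 to 36.2 for the other 5. Several log2 fold changes that rest on that library are therefore given with and without it, while correlations between genes were not recomputed. The third component (16.3%) set WT replicate 1 at −55.5 and WT replicate 2 at 45.0. WT also had the lowest correlation of log2 CPM between its 2 libraries, 0.913 against 0.929 in G0APOL1 and 0.958 in G2APOL1. Of the 14386 genes, 8.19% passed the test (edgeR quasi-likelihood, Benjamini-Hochberg adjusted p under 0.05) in G2APOL1 against WT, 8.17% in G0APOL1 against WT and 0.480% in G2APOL1 against G0APOL1. None of the 8 podocyte genes passed it in any of the 3 comparisons, and none passed with DESeq2 or limma-voom. An unadjusted p under 0.05 was reached by 0, 1 and 1 of the 8 genes in these comparisons, against 22.6%, 22.5% and 6.74% of all genes.

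Upstream sequence is shown for Magi2 and Ptpro, each from a pair of podocyte genes whose levels moved most closely together across the libraries. Nphs1, the partner of Magi2, also has a window, which holds neither motif named below and is not shown. Both sequences shown end before the annotated start of the gene. For this the Magi2 window was cut to 240 of its 250 bases. The sequences are RefSeq's for GRCm38.p6, on the plus strand at chr5:19226796-19227035 for Magi2 and chr6:137252049-137252298 for Ptpro, each 5′ of the gene. Capitals mark matches, on either strand, to GCGTGGGNG, a motif of the kind that zinc-finger factors such as WT1 and EGR1 bind, and to CANNTG, the E-box bound by factors such as TCF21.
Magi2: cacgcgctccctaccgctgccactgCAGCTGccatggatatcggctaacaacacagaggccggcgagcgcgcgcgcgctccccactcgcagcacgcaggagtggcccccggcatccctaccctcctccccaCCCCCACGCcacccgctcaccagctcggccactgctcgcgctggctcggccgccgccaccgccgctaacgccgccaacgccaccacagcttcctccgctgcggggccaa
Ptpro: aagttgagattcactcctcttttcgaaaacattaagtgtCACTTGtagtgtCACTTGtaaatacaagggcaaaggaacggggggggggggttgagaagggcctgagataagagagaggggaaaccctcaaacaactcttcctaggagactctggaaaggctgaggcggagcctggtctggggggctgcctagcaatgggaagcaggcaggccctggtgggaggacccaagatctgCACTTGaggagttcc
RefSeq windows were at hand for 5 of the 8 genes: Nphs1, Magi2, Ptpro, Cd2ap and Plce1. These genes have 6 windows, as Magi2 has 2. GCGTGGGNG was found in 1 of the 6, that of Magi2 shown, on the minus strand, whereas 1.65% of all 32851 windows of 250 bases hold it. CANNTG was found in 5 of the 6, all but that of Nphs1, against 66.2% of all windows. A match describes letters in the window and does not show that a factor binds there.

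Levels of the 8 genes were first compared with each other per kilobase of exon, as normalised read counts (CPM, on edgeR's TMM scale) divided by the length of all annotated exons of the gene joined. Podxl, the sialylated surface protein podocalyxin, had the highest level per length, with a mean of 12.4 CPM per kilobase over the 6 libraries. Cd2ap followed with 4.48, Synpo with 1.98 and Nphs1 with 1.17 CPM per kilobase. Ptpro had 0.588, Magi2 0.244, Plce1 0.202 and Wt1 0.182 CPM per kilobase. Neighbours in this order were apart over all libraries only between Podxl and Cd2ap and between Cd2ap and Synpo. The order of Synpo above Nphs1 and of Nphs1 above Ptpro also held within each of the 6 libraries, although the ranges overlapped. Magi2 lay above Plce1 in 3 of 6 libraries and Plce1 above Wt1 in 2 of 6, so the lowest 3 genes had no fixed order. With the longest transcript as the length, Cd2ap stood at 12.7 and Podxl at 12.6 CPM per kilobase, so the order of the top pair depends on which exons are counted as the gene.

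**Figure D1:**
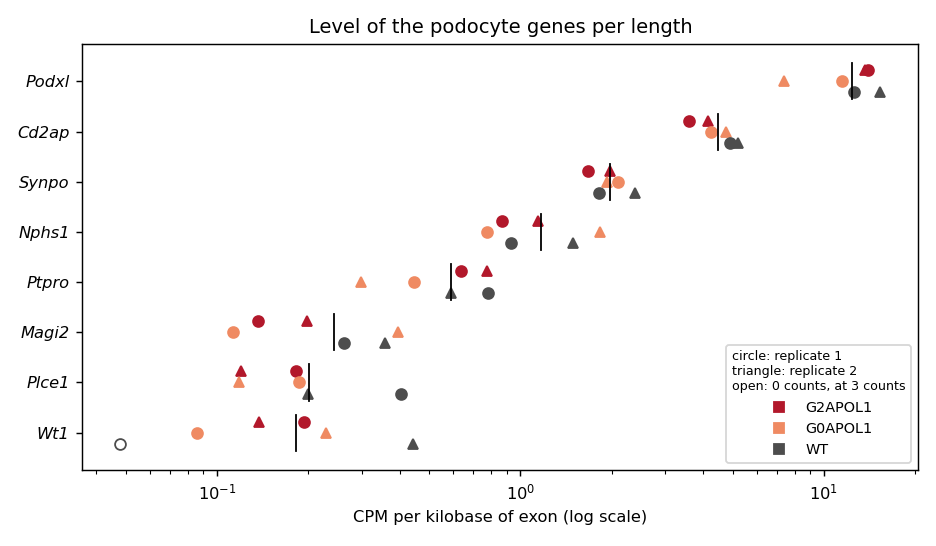
Level of each podocyte gene in CPM per kilobase of exon on a log axis, 1 point per library, with a black line at the mean of the 6 libraries; the open point is Wt1 in WT replicate 1, which had 0 counts and is drawn at the level of 3 counts. Podxl lies highest with a mean of 12.4 CPM per kilobase, and Magi2, Plce1 and Wt1 overlap at the bottom.

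Nphs1 (chromosome 7, 30458315 to 30487223, plus strand, GRCm38) encodes nephrin, the defining protein of the slit diaphragm. Its level was 5.74 and 7.58 CPM in the G2APOL1 libraries, 5.12 and 12.1 CPM in the G0APOL1 libraries and 6.15 and 9.89 CPM in the WT libraries. These values rest on 48 to 102 reads per library. The lowest and the highest library both belonged to G0APOL1, and all 3 groups overlapped. The log2 fold change was −0.27 ± 0.51 in G2APOL1 against WT (SE, 2 libraries each; 95% interval −1.36 to 0.82; edgeR adjusted p = 0.810). It was 0.10 ± 0.50 in G0APOL1 against WT (95% interval −0.99 to 1.19; edgeR adjusted p = 0.946). These intervals run from 0.390 to 1.77 times the WT level in G2APOL1 and from 0.504 to 2.28 times in G0APOL1. Without G0APOL1 replicate 2 the fold change in G0APOL1 against WT was −0.63, and without WT replicate 1 it was −0.24, so the sign rests on single libraries. The deposited table also lists Nphs1os and Rps12-ps4, which overlap 11.8% of the exon bases of Nphs1 on the opposite strand, at 0 counts in all 6 libraries.

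The slit diaphragm scaffold Magi2, a guanylate kinase-like protein that binds the nephrin tail, had 1.54 and 2.24 CPM in G2APOL1, 1.28 and 4.49 CPM in G0APOL1 and 2.97 and 4.07 CPM in WT libraries. The gene spans chromosome 5, 19227036 to 20704792, plus strand. Both G2APOL1 libraries lay below both WT libraries, while the G0APOL1 libraries lay on either side of them. The log2 fold change was −0.89 ± 0.86 in G2APOL1 against WT (95% interval −2.76 to 0.97; edgeR adjusted p = 0.600) and −0.29 ± 0.85 in G0APOL1 against WT (adjusted p = 0.902). In G0APOL1 against WT it was −1.44 without G0APOL1 replicate 2 and 0.35 without G0APOL1 replicate 1. These values rest on 12 to 38 reads per library, and the coefficient of variation within groups was 51.1%, against 19.6% from counting error. Only the G0APOL1 pair of libraries differed by more than counting error.

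Cd2ap (chromosome 17, 42792951 to 42876665, minus strand) encodes the adaptor that links nephrin to actin and to membrane traffic. Of the 8 genes, Cd2ap had the lowest coefficient of variation within groups, 7.26%. It had 57.1 and 65.6 CPM in G2APOL1, 67.6 and 75.3 CPM in G0APOL1 and 77.6 and 82.8 CPM in WT libraries. The groups did not overlap in any comparison, with G2APOL1 lowest and WT highest. The differences were small: the log2 fold change was −0.39 ± 0.19 in G2APOL1 against WT (95% interval −0.79 to 0.01; unadjusted p = 0.0571, edgeR adjusted p = 0.239). It was −0.17 ± 0.19 in G0APOL1 against WT (adjusted p = 0.677) and −0.22 ± 0.19 in G2APOL1 against G0APOL1 (adjusted p = 0.929). None of the 3 differences passed the test. The interval for G2APOL1 against WT corresponds to between 0.579 and 1.01 times the WT level.

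Ptpro (chromosome 6, 137252319 to 137463233, plus strand) encodes a receptor-type tyrosine phosphatase of the apical foot process membrane, also known as GLEPP1. Its level was 4.29 and 5.23 CPM in G2APOL1, 2.99 and 2.01 CPM in G0APOL1 and 5.26 and 3.96 CPM in WT libraries. Both G0APOL1 libraries lay below the other 4, and the G2APOL1 and WT libraries overlapped. The log2 fold change was −0.88 ± 0.63 in G0APOL1 against WT (95% interval −2.23 to 0.47; edgeR adjusted p = 0.468) and 0.92 ± 0.63 in G2APOL1 against G0APOL1 (95% interval −0.43 to 2.27; adjusted p = 0.883). In G2APOL1 against WT it was 0.05 ± 0.61 (95% interval −1.27 to 1.36; adjusted p = 0.978). Without G0APOL1 replicate 2 the change in G0APOL1 against WT was −0.61.

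Podxl (chromosome 6, 31519488 to 31563981, minus strand) makes podocalyxin, which coats the foot processes with negative charge and is anchored to ezrin by NHERF proteins. It had 76.6 and 74.7 CPM in G2APOL1, 63.0 and 40.4 CPM in G0APOL1 and 68.7 and 84.3 CPM in WT libraries. The G0APOL1 libraries were again the lowest, and the G2APOL1 values fell between the pair of WT values. Podxl was the only one of the 8 genes with an unadjusted p under 0.05. In G0APOL1 against WT the log2 fold change was −0.56 ± 0.23 (95% interval −1.05 to −0.07; unadjusted p = 0.0271, edgeR adjusted p = 0.156). In G2APOL1 against G0APOL1 it was 0.55 ± 0.23 (95% interval 0.06 to 1.04; unadjusted p = 0.0309, adjusted p = 0.670). Much of the difference rests on G0APOL1 replicate 2: without it, the log2 fold change was −0.27 in G0APOL1 against WT and 0.27 in G2APOL1 against G0APOL1. Without G0APOL1 replicate 1 instead, these were −0.93 (adjusted p = 0.073) and 0.92. In G2APOL1 against WT the log2 fold change of Podxl was −0.02 ± 0.22 (95% interval −0.50 to 0.47; adjusted p = 0.979).

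Synpo (chromosome 18, 60593973 to 60660142, minus strand) encodes synaptopodin, which bundles actin in the foot processes. It had 15.9 and 18.8 CPM in G2APOL1, 20.0 and 18.3 CPM in G0APOL1 and 17.4 and 22.7 CPM in WT libraries. All groups overlapped. The log2 fold change was −0.21 ± 0.30 in G2APOL1 against WT (95% interval −0.85 to 0.43; edgeR adjusted p = 0.734) and −0.07 ± 0.30 in G0APOL1 against WT (95% interval −0.70 to 0.57; adjusted p = 0.939).

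Plce1 (chromosome 19, 38481109 to 38785030, plus strand) encodes phospholipase C epsilon, a signalling enzyme whose loss causes early nephrotic syndrome in humans. It had 2.91 and 1.92 CPM in G2APOL1, 2.99 and 1.89 CPM in G0APOL1 and 6.45 and 3.19 CPM in WT libraries. All 4 transgenic libraries lay below both WT libraries, and G2APOL1 and G0APOL1 were close to each other. The log2 fold change was −0.99 ± 0.74 in G2APOL1 against WT (95% interval −2.58 to 0.60; edgeR adjusted p = 0.477) and −0.98 ± 0.74 in G0APOL1 against WT (95% interval −2.58 to 0.62; adjusted p = 0.502). These comparisons share the WT libraries, and WT replicate 1 carried 65 reads against 29 in WT replicate 2. Without WT replicate 1 the log2 fold changes were −0.39 in G2APOL1 against WT and −0.40 in G0APOL1 against WT.

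Wt1 (chromosome 2, 105126529 to 105173616, plus strand), the zinc-finger transcription factor required for podocyte formation and upkeep, was near the limit of detection. It had 14 and 8 reads in G2APOL1, 5 and 12 reads in G0APOL1 and 0 and 25 reads in WT libraries. On the CPM scale this was 1.20 and 0.85 CPM in G2APOL1, 0.53 and 1.42 CPM in G0APOL1, and 0 and 2.75 CPM in WT. The lowest and the highest library were both WT. The 95% interval of counting error for the 0 reads in WT replicate 1 reached 3.69 reads. A floor of 3 counts in that library corresponds to 0.297 CPM. The fitted log2 fold change was −0.40 ± 1.67 in G2APOL1 against WT (95% interval −4.01 to 3.20; edgeR adjusted p = 0.925) and −0.48 ± 1.69 in G0APOL1 against WT (adjusted p = 0.917). Pooled over the groups, the spread between libraries of a group was larger than counting error alone, with a coefficient of variation of 105% against 30.6%. Only the WT pair, with 0 and 25 reads, differed by more than counting error.

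**Figure D2:**
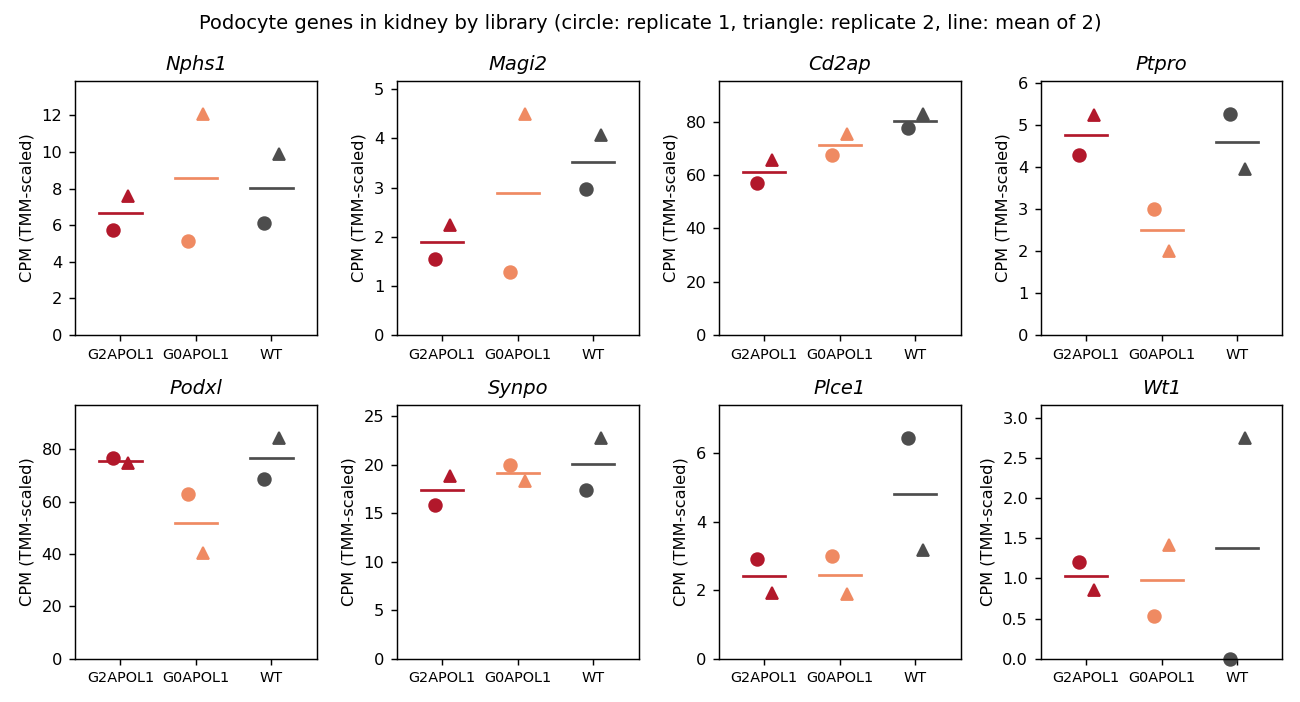
CPM of the 8 podocyte genes in each library, with circles for replicate 1, triangles for replicate 2 and a line at the mean of the 2 libraries of a group; each panel has its own axis from 0. Plce1 and Cd2ap lie lower in all 4 transgenic libraries than in both WT libraries, Podxl and Ptpro are lowest in G0APOL1, and WT replicate 1 has no Wt1 read.

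How far the 2 libraries of a group lay apart was set against counting error, taken as an exact 95% interval of the ratio of both counts. Of the 24 ratios, 9 exceeded counting error: 1 in G2APOL1, 3 in G0APOL1 and 5 in WT. In G2APOL1 it was Cd2ap alone, with a log2 ratio of replicate 2 to replicate 1 of 0.20. In G0APOL1, replicate 2 was higher for Magi2 (log2 ratio 1.81) and Nphs1 (1.24) and lower for Podxl (−0.64). In WT, replicate 2 was higher for Nphs1 (log2 ratio 0.69), Synpo (0.39), Podxl (0.29) and Wt1, and lower for Plce1 (−1.02). Ptpro stayed within counting error in every group. The replicate difference of Nphs1 in G0APOL1 was thus larger than any of its 3 differences between groups. G0APOL1 replicate 2 held the highest level of Nphs1 and Magi2 and the lowest of Podxl, Ptpro and Plce1.

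**Figure D3:**
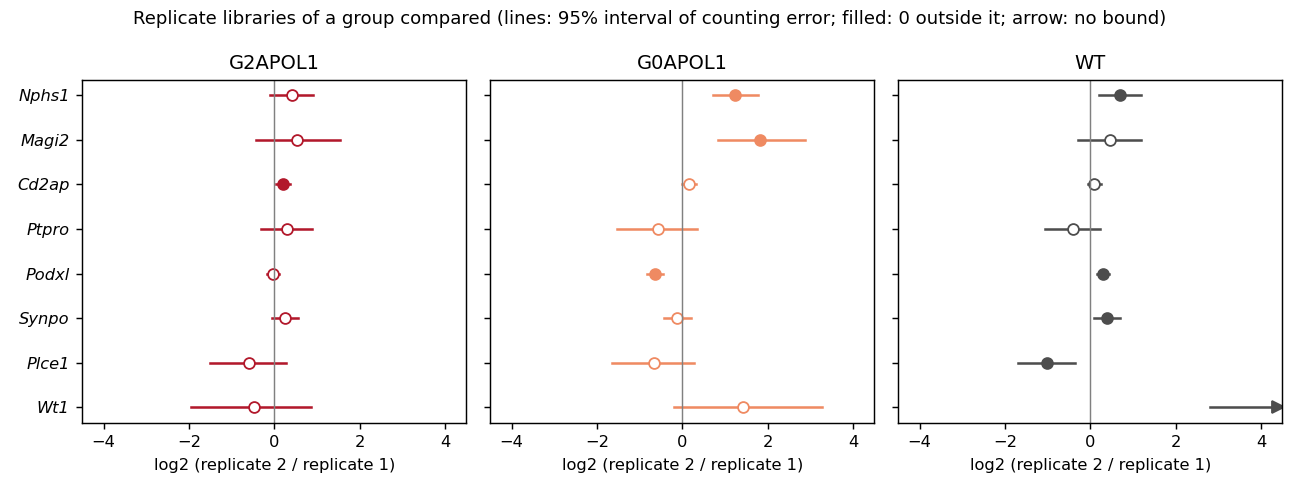
Log2 ratio of replicate 2 to replicate 1 for each podocyte gene within each group, with lines for the 95% interval of counting error and filled points where it leaves out 0; the arrow marks Wt1 in WT, with 0 and 25 reads, which has no upper bound. G0APOL1 and WT hold 8 of the 9 ratios that exceed counting error.

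Ratios between podocyte genes of a single library do not depend on its scaling. Nphs1 per length was 0.062 and 0.084 times Podxl in G2APOL1, 0.067 and 0.247 times in G0APOL1, and 0.074 and 0.097 times in WT libraries. G0APOL1 replicate 2 thus had the highest ratio, and the other 5 libraries kept between 0.062 and 0.097. Podxl per length was 3.88 and 3.29 times Cd2ap in G2APOL1, 2.69 and 1.55 times in G0APOL1, and 2.56 and 2.94 times in WT libraries. Both G2APOL1 libraries had a higher ratio of Podxl to Cd2ap than the other 4.

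Across the 6 libraries the 8 genes did not vary as a single block. Of their 28 pairs, 15 had a positive Pearson r of log2 CPM and 13 a negative one, with a median of 0.10. Nphs1 and Magi2 had the highest r (0.90), followed by Podxl and Ptpro (0.83), and Wt1 and Plce1 had the lowest (−0.70), each over 6 libraries. Nphs1 and Podxl, the junction and the surface marker, had an r of −0.45, with G0APOL1 replicate 2 highest for Nphs1 and lowest for Podxl. No r was recomputed without that library, so its sign may rest on it. The same library was highest for both Nphs1 and Magi2 and lowest for both Podxl and Ptpro, so the r of these pairs may rest on it too. These values describe 6 points that share library and group and carry no test. Among 10101 tested genes with a mean of at least 5 CPM, those whose pattern was most like that of Nphs1 were Luc7l, Gigyf1, Spry2, Slc4a3 and Smc5, with r between 0.98 and 0.99 over the 6 libraries. An r of at least 0.9 with Nphs1 was shared by 148 genes. Spry2, a feedback inhibitor of receptor tyrosine kinase signalling, had 4.29 and 7.69 CPM in G2APOL1, 3.95 and 14.9 CPM in G0APOL1 and 4.36 and 10.3 CPM in WT libraries. Like Nphs1, all 5 genes were highest in G0APOL1 replicate 2 and next highest in WT replicate 2.

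Set beside all tested genes, the 8 podocyte genes had mostly negative log2 fold changes in both transgenic groups, none of which passed the test. Their median log2 fold change was −0.33 in G2APOL1 against WT, with −0.04 over all 14386 genes, and 7 of the 8 lay below 0, as did 52.2% of all genes. In G0APOL1 against WT the median was −0.39, with 0.02 over all genes, and again 7 of 8 lay below 0, with 48.8% of all genes. The WT libraries are shared by these comparisons, so the counts are not independent of each other. In G2APOL1 against G0APOL1 the median was −0.08, with −0.02 over all genes, and 5 of 8 lay below 0, with 51.7% of all genes. There Nphs1 had −0.37 ± 0.51, Magi2 −0.61 ± 0.87, Synpo −0.15 ± 0.30, Plce1 −0.01 ± 0.75 and Wt1 0.08 ± 1.69. Their edgeR adjusted p lay between 0.972 and 0.999. Without G0APOL1 replicate 2, Nphs1 was at 0.38 and Magi2 at 0.56 in this comparison. Without WT replicate 2, which held the highest level of 4 of the genes, the medians were −0.07 in G2APOL1 against WT and −0.08 in G0APOL1 against WT.

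Complete separation of groups was counted as well. In G2APOL1 against WT, 3 of the 8 genes (Plce1, Magi2 and Cd2ap) were lower in both G2APOL1 libraries than in both WT libraries, where 28.1% of all genes were lower in this way. In G0APOL1 against WT, 4 of the 8 (Plce1, Podxl, Ptpro and Cd2ap) were lower, where 24.3% of all genes were. In G2APOL1 against G0APOL1, Podxl and Ptpro were higher, with 19.7% of all genes, and Cd2ap was lower, with 19.5% of all genes. With 2 libraries a group such separation is common, and nothing is read from these counts. Summed over the 8 genes, the level was 165.2 and 176.9 CPM in G2APOL1, 163.4 and 156.0 CPM in G0APOL1 and 184.5 and 213.7 CPM in WT libraries. Podxl and Cd2ap made up 74.2% to 80.9% of that sum. The other 6 genes together had 31.5 and 36.6 CPM in G2APOL1, 32.9 and 40.2 CPM in G0APOL1 and 38.2 and 46.6 CPM in WT libraries, so that the G0APOL1 and WT libraries overlapped.

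**Figure D4:**
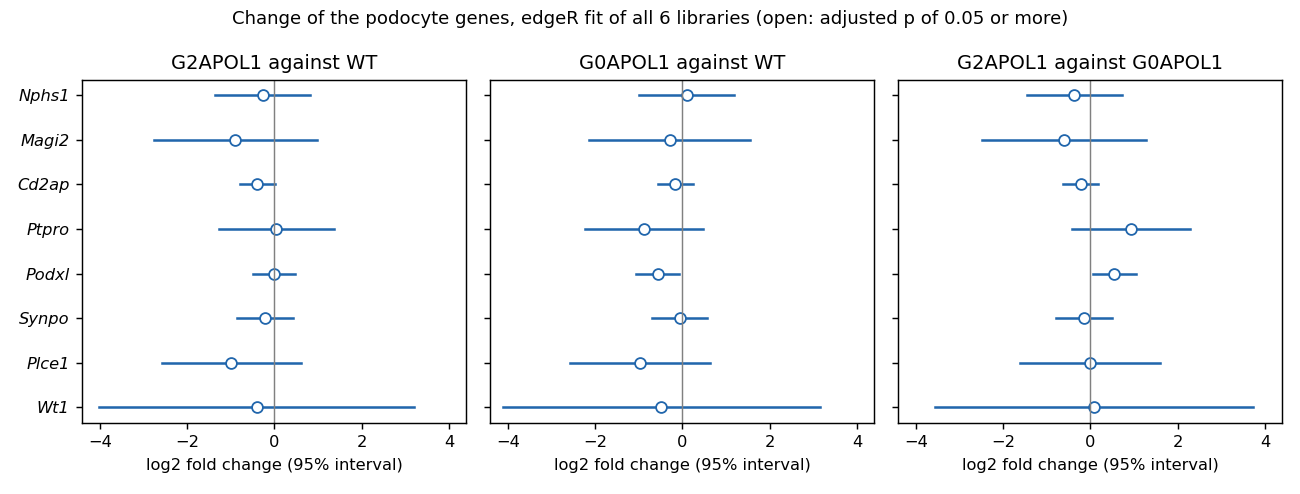
Log2 fold change of the 8 podocyte genes with its 95% interval in each comparison, from an edgeR fit of all 6 libraries; open points have an adjusted p of 0.05 or more, which is all of them. Intervals of Podxl leave out 0 in G0APOL1 against WT (−1.05 to −0.07) and in G2APOL1 against G0APOL1 (0.06 to 1.04), before adjustment over genes.

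Other genes known from podocytes were followed in lists chosen by function. A place on a list does not mean that only podocytes express the gene. Several listed genes lay far above Nphs1 in bulk kidney, with WT means of 150 CPM for Npnt, 103 CPM for Hspg2 and 8.02 CPM for Nphs1. Which cells the listed transcripts came from was not tested. Of 15 tested slit diaphragm and junction partners, none passed the test in G2APOL1 against WT and 2 fell in G0APOL1 against WT, with list medians of −0.19 and −0.26 on the log2 scale. Those that fell were Fyn, a Src family kinase that phosphorylates nephrin (log2 fold change −1.68 ± 0.47, edgeR adjusted p = 0.0422), and Tjp1, the junction scaffold ZO-1 (−1.02 ± 0.29, adjusted p = 0.0493). Fyn had 4.16 and 3.90 CPM in G0APOL1 libraries, against 10.8 and 15.2 CPM in WT libraries. Both calls were lost without any one of the libraries other than WT replicate 1, with log2 fold changes between −1.93 and −1.42 for Fyn and between −1.27 and −0.76 for Tjp1. The calls were also lost with limma-voom and in a fit of only the 4 libraries compared. Kirrel, whose product NEPH1 pairs with nephrin across the slit, had a log2 fold change of −1.40 ± 0.50 in G0APOL1 against WT (adjusted p = 0.111). Iqgap1, a scaffold that binds nephrin, had −0.44 ± 0.18 (adjusted p = 0.168).

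Among 10 podocyte transcription factors and cell cycle regulators, none passed in G2APOL1 against WT and 1 rose in G0APOL1 against WT, with medians of −0.24 and −0.61. The gene that rose was Tead1, a DNA-binding partner of YAP (1.14 ± 0.26, edgeR adjusted p = 0.0177), with 35.0 and 50.7 CPM in G0APOL1 and 18.4 and 20.5 CPM in WT libraries. Without G0APOL1 replicate 2 the log2 fold change of Tead1 was 0.86 and the call was lost. Cdkn1c, the cyclin-dependent kinase inhibitor p57 of mature podocytes, had −1.20 ± 0.36 in G2APOL1 against WT (adjusted p = 0.0669), and passed under DESeq2, limma-voom, a fit of only the 4 libraries compared, without the filter on low counts and without either G0APOL1 library. Its exons overlap Gm44732 on the opposite strand over 30.7% of their bases, so reads of the pair cannot be told apart without strand. The forkhead genes Foxc2 and Foxc1 had −1.48 ± 0.58 (adjusted p = 0.147) and −0.36 ± 0.29 (adjusted p = 0.519) in the same comparison. In G0APOL1 against WT, Foxc1 had −0.62 (edgeR adjusted p = 0.238).

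Of 14 tested cytoskeleton genes, 2 fell in G2APOL1 against WT and 1 fell in G0APOL1 against WT, with medians of −0.21 and −0.31. Inf2, an actin-nucleating formin mutated in human focal segmental glomerulosclerosis, had 3.09 and 4.81 CPM in G2APOL1, 5.23 and 11.6 CPM in G0APOL1 and 13.9 and 30.5 CPM in WT libraries. It fell by 2.49 ± 0.51 on the log2 scale in G2APOL1 against WT (edgeR adjusted p = 0.0104). Tns2, a tensin at focal adhesions, fell by 0.98 ± 0.26 (adjusted p = 0.0367). Both calls were lost without either G2APOL1 library or without WT replicate 2, with log2 fold changes between −2.95 and −1.82 for Inf2 and between −1.13 and −0.80 for Tns2. Most calls over all tested genes in G2APOL1 against WT were also lost without either G2APOL1 library. Such a loss, here and below, is therefore not particular to the named genes. Slc9a3r2, whose product NHERF2 anchors podocalyxin to ezrin, fell in G0APOL1 against WT (−1.05 ± 0.20, adjusted p = 0.00596). Its level averaged 41.9 ± 5.54 CPM in G0APOL1 and 87.0 ± 6.82 CPM in WT libraries (SD, 2 libraries each), and the call was lost without G0APOL1 replicate 2 (adjusted p = 0.061). The intermediate filament gene Nes had −1.36 ± 0.44 in G0APOL1 against WT (adjusted p = 0.0826), and passed without the filter on low counts.

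Genes listed for the podocyte surface and its secreted proteins moved both ways. Of 16 tested, 1 rose and 2 fell in G2APOL1 against WT, and 1 fell in G0APOL1 against WT, with medians of −0.23 and −0.28. Itga3, the integrin alpha 3 chain that holds podocytes to their basement membrane, fell in both: by 1.16 ± 0.24 on the log2 scale in G2APOL1 (edgeR adjusted p = 0.0101) and by 1.41 ± 0.24 in G0APOL1 (adjusted p = 0.00327). Itga3 had 30.9 and 34.7 CPM in G2APOL1, 30.2 and 24.7 CPM in G0APOL1 and 86.2 and 60.2 CPM in WT libraries. The matrix protein gene Npnt fell in G2APOL1 (−1.03 ± 0.20, adjusted p = 0.00788), and Clic5, which encodes a partner of the ezrin and podocalyxin complex, rose in G2APOL1 (0.88 ± 0.21, adjusted p = 0.0240). All 3 calls in G2APOL1 against WT were lost without either G2APOL1 library, with log2 fold changes of −1.39 to −0.87 for Itga3, −1.18 to −0.86 for Npnt and 0.73 to 1.07 for Clic5. That of Clic5 was also lost without WT replicate 1. The receptor kinase gene Mertk had 0.97 ± 0.32 in G0APOL1 against WT (adjusted p = 0.0831), and passed with the replicate block, without the filter on low counts and without WT replicate 2.

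Glomerular basement membrane genes, which podocytes and endothelial cells make together, had median log2 fold changes of −0.84 in G2APOL1 against WT and −0.65 in G0APOL1 against WT. Of the 10, 3 fell in G2APOL1 and 2 in G0APOL1. Hspg2, encoding the heparan sulphate proteoglycan perlecan, fell by 1.08 ± 0.19 on the log2 scale in G2APOL1 (edgeR adjusted p = 0.00479) and by 1.26 ± 0.20 in G0APOL1 (adjusted p = 0.00194). It had 47.2 and 49.7 CPM in G2APOL1, 39.8 and 45.9 CPM in G0APOL1 and 94.1 and 111 CPM in WT libraries. Lamb2, the laminin beta 2 chain of the mature membrane, fell by 0.88 ± 0.23 in G2APOL1 (adjusted p = 0.0309) and by 1.12 ± 0.23 in G0APOL1 (adjusted p = 0.00913). Agrn, encoding agrin, fell by 0.81 ± 0.20 in G2APOL1 (adjusted p = 0.0262). Without either G2APOL1 library, the calls of Hspg2, Lamb2 and Agrn in G2APOL1 were lost, and those of Lamb2 and Agrn were also lost without WT replicate 2. The call of Lamb2 in G0APOL1 was lost without either G0APOL1 library, with log2 fold changes of −1.33 to −0.91. Over all libraries left out, the log2 fold change in G2APOL1 lay between −1.20 and −0.96 for Hspg2, −1.06 and −0.66 for Lamb2 and −0.94 and −0.69 for Agrn. Col4a5, a collagen IV chain mutated in Alport syndrome, had −1.02 ± 0.30 in G0APOL1 against WT (adjusted p = 0.0559), and passed under DESeq2, with the replicate block, without the filter on low counts and without WT replicate 1.

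Genes reported to rise in injured podocytes went both ways here. Of 8 tested, 1 rose and 3 fell in G2APOL1 against WT, and 1 rose and 4 fell in G0APOL1 against WT, with medians of −1.14 and −0.84. Ctsl, encoding the lysosomal protease cathepsin L, was the gene that rose in both: by 1.72 ± 0.18 on the log2 scale in G2APOL1 (edgeR adjusted p = 0.000187) and by 1.09 ± 0.18 in G0APOL1 (adjusted p = 0.00282). Its level was 454 and 408 CPM in G2APOL1, 291 and 267 CPM in G0APOL1 and 132 and 129 CPM in WT libraries, and both calls held with any library left out. Ctsl is active in many kidney cells, and 26.8% of its exon bases overlap Gm47123 on the opposite strand. The intermediate filament gene Vim fell by 1.01 ± 0.26 in G2APOL1 (adjusted p = 0.0328) and by 1.54 ± 0.27 in G0APOL1 (adjusted p = 0.00386). S100a4, a calcium-binding protein gene of fibroblasts and leukocytes, had 0.51 and 0.53 CPM in G2APOL1, 1.17 and 0.71 CPM in G0APOL1 and 5.45 and 9.78 CPM in WT libraries. It fell by 3.83 ± 0.86 in G2APOL1 (adjusted p = 0.0162) and by 2.99 ± 0.82 in G0APOL1 (adjusted p = 0.0407), and shares 51.7% of its exon bases with Gm42674, which is listed at 0.

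Des, the desmin gene, and Plaur, the urokinase receptor gene, fell in G0APOL1 against WT, by 1.68 ± 0.39 (edgeR adjusted p = 0.0177) and by 2.83 ± 0.66 (adjusted p = 0.0188). They are named because they complete the count of 4, after their values were seen. Angptl4, a secreted regulator of lipoprotein lipase, was the one listed podocyte gene that passed in G2APOL1 against G0APOL1, where it fell by 1.41 ± 0.25 (adjusted p = 0.0262). Angptl4 had 61.0 and 66.7 CPM in G2APOL1, 146 and 193 CPM in G0APOL1 and 114 and 197 CPM in WT libraries, and fell by 1.28 ± 0.25 in G2APOL1 against WT (adjusted p = 0.00822). Leaving out libraries ended several of these calls. In G2APOL1 against WT, Vim (log2 fold change −1.31 to −0.61), S100a4 (−4.19 to −3.35) and Angptl4 (−1.62 to −0.83) were lost without either G2APOL1 library, and Vim and S100a4 also without WT replicate 2. In G0APOL1 against WT, Vim was lost without G0APOL1 replicate 2 (adjusted p = 0.054). S100a4 was lost there without any one library except WT replicate 1 (−3.41 to −2.51), and in both comparisons with limma-voom. The call of Angptl4 in G2APOL1 against G0APOL1 was lost without any one of those 4 libraries (−1.58 to −1.19).

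Markers of the other kidney cells moved with the same groups, and their part in the podocyte values was not tested. Proximal tubule markers summed to 12931 and 12991 CPM in G2APOL1, 13038 and 11611 CPM in G0APOL1 and 6691 and 5087 CPM in WT libraries. Of the 10, 8 rose in each transgenic group against WT, with list medians of 1.22 in G2APOL1 and 1.06 in G0APOL1. Lrp2, the endocytic receptor megalin, rose by 1.30 ± 0.21 in G2APOL1 (edgeR adjusted p = 0.00277) and by 1.45 ± 0.21 in G0APOL1 (adjusted p = 0.00139). The organic anion transporter gene Slc22a8 rose by 1.30 ± 0.21 in G2APOL1 (adjusted p = 0.00264) and by 1.84 ± 0.21 in G0APOL1 (adjusted p = 0.000293). In G2APOL1 the call of Lrp2 was lost without either G2APOL1 library (1.12 to 1.52) and that of Slc22a8 without G2APOL1 replicate 2 (adjusted p = 0.058).

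Of the glomerular endothelial and mesangial markers that passed the test against WT, none rose. Glomerular endothelial markers summed to 625 and 696 CPM in G2APOL1, 610 and 446 CPM in G0APOL1 and 888 and 944 CPM in WT libraries. Of 10 tested, 4 (Emcn, Plat, Pecam1 and Eng) fell in G2APOL1 and 5 (those and Fabp4) in G0APOL1 against WT. Emcn, an endothelial sialomucin gene, fell by 1.44 ± 0.20 in G2APOL1 (edgeR adjusted p = 0.00123, 0.051 without G2APOL1 replicate 1) and by 1.73 ± 0.20 in G0APOL1 (adjusted p = 0.000335). Plat, the tissue plasminogen activator gene, fell by 1.90 ± 0.25 in G2APOL1 (adjusted p = 0.000853) and by 1.99 ± 0.25 in G0APOL1 (adjusted p = 0.000536). Sost, listed with the endothelial markers, was at 0 in 5 of the 6 libraries. Mesangial and smooth muscle markers summed to 313 and 332 CPM in G2APOL1, 274 and 234 CPM in G0APOL1 and 490 and 555 CPM in WT libraries, and 5 of 10 (Tagln, Acta2, Rgs5, Itga8 and Gata3) fell in G2APOL1 and 4 (all but Gata3) in G0APOL1. Tagln and Acta2 are smooth muscle contractile genes, with log2 fold changes of −0.75 ± 0.20 and −0.82 ± 0.21 in G2APOL1 and of −1.34 ± 0.21 and −1.12 ± 0.21 in G0APOL1, all with an adjusted p under 0.05. In G2APOL1 both calls were lost without either G2APOL1 library or WT replicate 2 (Tagln −0.90 to −0.58, Acta2 −1.06 to −0.61), and that of Tagln, whose exons overlap other genes on the opposite strand over 67.9% of their bases, also without either G0APOL1 library. In G0APOL1 that of Acta2 was lost without G0APOL1 replicate 2 (adjusted p = 0.063).

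Markers of parietal epithelial cells, which share Wt1 with podocytes, summed over 8 listed genes to 392 and 362 CPM in G2APOL1, 420 and 452 CPM in G0APOL1 and 326 and 273 CPM in WT libraries, with Lcn12 at 0 throughout. That sum follows Cldn2, a claudin also abundant in the proximal tubule, which rose by 1.51 ± 0.18 in G2APOL1 (edgeR adjusted p = 0.000485) and by 1.82 ± 0.18 in G0APOL1 (adjusted p = 0.000139). Medians of the 7 tested markers were −0.86 and −1.17, and 2 of them fell in G0APOL1, Pax2 and Scin, an actin-severing protein gene (−1.66 ± 0.31, adjusted p = 0.00564, lost without G0APOL1 replicate 2 at 0.067). Of 5 distal convoluted tubule markers, Calb1 and Tmem52b rose in G2APOL1 against WT, and these and Pvalb in G0APOL1 against WT. In G2APOL1 both calls were lost without either G2APOL1 library (Calb1 0.65 to 0.96, Tmem52b 1.47 to 2.77), and that of Calb1 also without WT replicate 1. Of 8 collecting duct markers, Aqp2, Fxyd4 and Slc4a1 fell in both, Avpr2 fell in G0APOL1 and Slc26a4 rose in both, and the call of Aqp2 in G2APOL1 was lost without either G2APOL1 library (−1.89 to −1.17). Of 8 macrophage markers, C1qa, C1qb, Cd14 and Lyz2 fell in both, with macrophage sums of 124 to 141 CPM in the 4 transgenic libraries and 213 and 265 CPM in WT libraries. The call of C1qa was lost in G2APOL1 without either G2APOL1 library (−2.24 to −1.49) and in G0APOL1 without G0APOL1 replicate 1 (adjusted p = 0.065), and that of Lyz2 in G0APOL1 without G0APOL1 replicate 2 (adjusted p = 0.064). The thick limb gene Ppp1r1a fell in both and Egf rose in G0APOL1, and of 5 red cell transcripts Hba-a1 and Hbb-bt fell in both and Alas2 in G2APOL1. Calls of Ppp1r1a and Hbb-bt were lost in G2APOL1 without either G2APOL1 library (Ppp1r1a −0.84 to −0.68, Hbb-bt −1.43 to −0.88). In G0APOL1 they were lost without any one transgenic library, that of Ppp1r1a also in the fit of 4 libraries and that of Hbb-bt without WT replicate 1 (Ppp1r1a −0.75 to −0.61, Hbb-bt −1.21 to −0.70). Hba-a2, near-identical to Hba-a1, had 270 and 178 CPM in G2APOL1, 162 and 156 CPM in G0APOL1 and 52.7 and 0 CPM in WT libraries, and did not pass. Lyz2, Hba-a1 and Hbb-bt each have a near-identical copy with which reads may have been split, so their values are uncertain. Outside the naming rule, genes in these counts are named after their values were seen, and their calls were not recomputed with libraries left out. In G2APOL1 against G0APOL1, apart from Angptl4, the listed genes that passed were Egf of the thick limb (−1.20 ± 0.19, adjusted p = 0.0142) and Calb1 of the distal convoluted tubule (−0.98 ± 0.20, adjusted p = 0.0455). Both were lost without any one of those 4 libraries (Egf −1.27 to −1.10, Calb1 −1.13 to −0.84). The call of Calb1 was also lost with DESeq2's size factors, with a mean of at least 1 CPM and without mitochondrial genes.

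**Figure D5:**
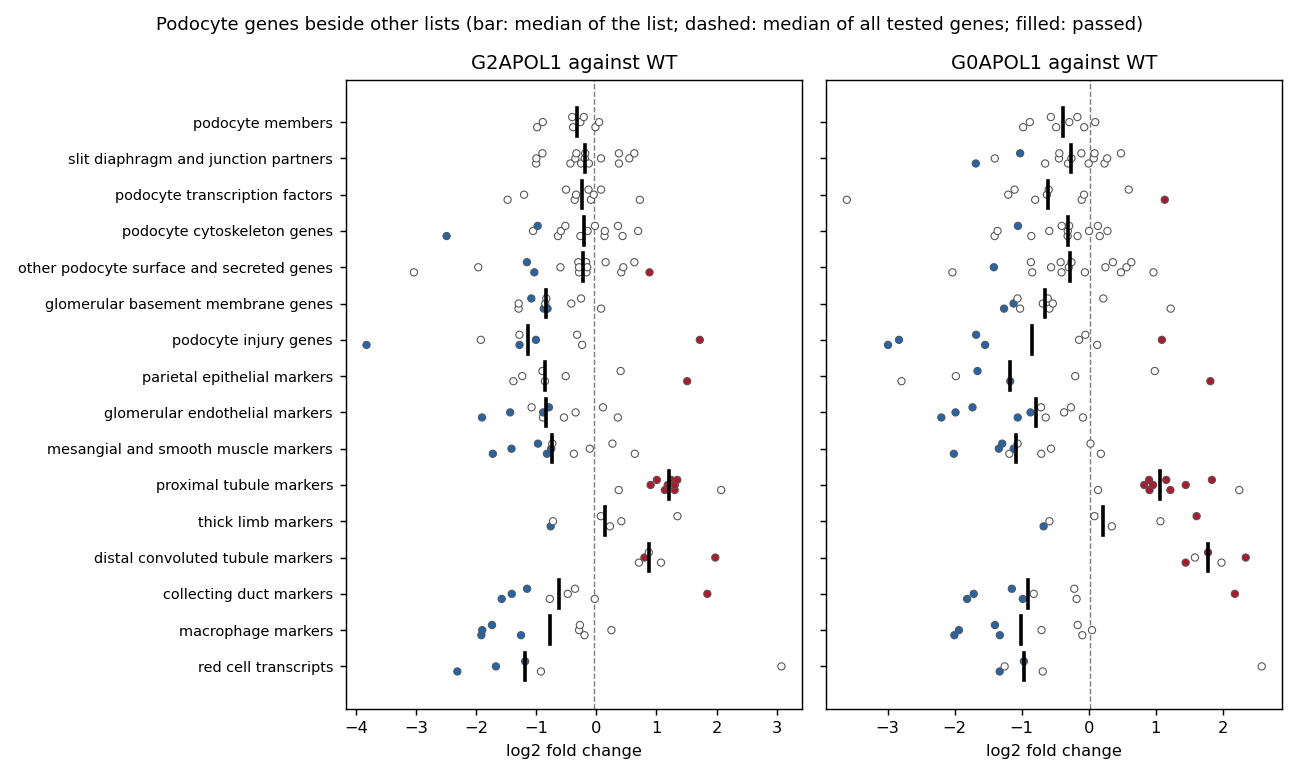
Log2 fold change against WT of each tested gene in 16 lists, for G2APOL1 on the left and G0APOL1 on the right; bars are list medians, the dashed line is the median of all tested genes, and filled points passed the test (red higher, blue lower). The podocyte members in the top row have no filled point and medians of −0.33 and −0.39, while proximal tubule markers have medians of 1.22 and 1.06 and glomerular endothelial markers −0.84 and −0.79.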

How the data were processed

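Bulk mouse kidney RNA was sequenced in 6 libraries, all labelled batch 1, with the NEBNext Ultra kit, per the labels' protocols. The authors' deposited table gives 1 expected count per gene and library, unscaled; a library's values are not whole for 1.39% to 1.55% of genes. Per the submitters' processing notes, Cell Ranger ARC 2.0.2 and build mm10 are named, without a stated role; aligner, counter and strand use were not given in the sources used. Names, coordinates and lengths came from GENCODE M21 (GRCm38), which matched 54079 of 54146 genes.

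Expected counts were rounded. edgeR 4.0.16 (R 4.3.3) filtered genes with filterByExpr, scaled libraries by TMM and fitted all 6 together with robust quasi-likelihood, with 3 residual degrees of freedom, a median prior of 10.2 and a common biological coefficient of variation of 0.315. Genes passed at a Benjamini-Hochberg adjusted p under 0.05 over all 14386. SEs were derived from the log2 fold change and F. CPM are TMM-scaled. Intervals and floors of 3 counts cover counting error only. Near-identical copies were sought with minimap2 2.31 (at least 95% identity over 50% of length). The fit was tested on simulated data.

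Alternatives were DESeq2 1.42.0, limma-voom (limma 3.58.1), DESeq2 size factors, no filter, a mean of at least 1 CPM, the 4 libraries compared, no mitochondrial genes, a replicate block and each library left out. All 8 podocyte genes are named in every comparison; from each other podocyte list up to 4 tested genes with the smallest p, from each other cell type's list up to 2, and the 5 most like Nphs1. Genes of other cell types are given values only where they bear on the podocyte genes. The podocyte genes and lists were chosen with earlier results of these data known.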

Additional observations from a re-analysis of the deposited data

How the results depend on the processing

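In each alternative, 0 of the 8 podocyte genes passed in any of the 3 comparisons; the lowest adjusted p was 0.073, for Podxl in G0APOL1 against WT without G0APOL1 replicate 1. Of 336 recomputed log2 fold changes of these genes, 309 kept their sign and 27 reversed it, none of them called. Counts of all genes called moved more: without the filter on low counts 1806 genes passed in G2APOL1 against WT, and between G2APOL1 and G0APOL1 245 passed. DESeq2 passed 146 between G2APOL1 and G0APOL1, and a fit of only the 4 libraries compared passed 139 there and 725 in G0APOL1 against WT. Over single libraries left out the counts ranged from 154 to 1681 for G2APOL1 against WT, from 462 to 1481 for G0APOL1 against WT and from 14 to 123 in G2APOL1 against G0APOL1. The cause was not tested.

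The labels do not say whether replicate numbers pair libraries. Same-numbered libraries shared little deviation, with correlations of 0.058, 0.096 and 0.043 for the 3 pairs of groups. The fit with a replicate block called 1724, 1618 and 120 genes in these comparisons and no podocyte gene; it turned the log2 fold change of Wt1 to 0.67 in G2APOL1 against WT and 0.10 in G0APOL1 against WT. With limma-voom Wt1 was at 1.66 and 1.41, and Plce1 in G2APOL1 against G0APOL1 at 0.0077. Without mitochondrial genes Plce1 was at 0.011 there, and without the filter Podxl in G2APOL1 against WT was at 0.0059.

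With single libraries left out, medians of the 8 genes ranged from −0.41 to −0.07 in G2APOL1 against WT, −0.62 to −0.08 in G0APOL1 against WT and −0.18 to 0.32 in G2APOL1 against G0APOL1, the highest without G0APOL1 replicate 2. In G2APOL1 against WT, Nphs1 ranged from −0.57 to 0.11, Podxl from −0.15 to 0.14, Ptpro from −0.14 to 0.27 and Wt1 from −1.40 to 6.35. In G0APOL1 against WT, Nphs1 ranged from −0.63 to 0.58, Synpo from −0.28 to 0.14, Magi2 from −1.44 to 0.35 and Wt1 from −1.53 to 6.27. In G2APOL1 against G0APOL1, Nphs1 ranged from −0.84 to 0.38, Wt1 from −0.44 to 0.93, Magi2 from −1.23 to 0.56 and Plce1 from −0.34 to 0.37. The highest Wt1 values, without WT replicate 2, are set against a single WT library at 0 reads and are no measure of size. A library left as the sole one of its group is assumed to vary like the others.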
